A study of Mus musculus with 10 samples.

Results

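Sst and Trh encode somatostatin and thyrotropin-releasing hormone, a pair of peptide hormones by which the hypothalamus controls the pituitary. They are 2 of the 19505 named genes measured, and the array carries 1 probe set for each. The probe sets were taken from the platform's annotation by gene symbol. The tissue was hypothalamus from male mice of the inbred strain C57BL/6J, and its messenger RNA was hybridised to Clariom S Mouse arrays, which carry a set of probes for each transcript and use 1 colour. The groups were 5 samples from mice of 138 weeks (Old 1 to Old 5) and 5 from mice of 24 weeks (Young 1 to Young 5), with no treatment and no transgene named for either group. Since the labels leave unsaid whether every sample came from its own animal, the p-values cover only the variation among these 10 arrays, part of which may be technical.

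Somatostatin is made by neurons of the periventricular hypothalamus that release it into the portal blood, where it inhibits the secretion of growth hormone; local neurons of the arcuate nucleus, cortex and striatum make it too. Thyrotropin-releasing hormone is made for this purpose in the paraventricular nucleus, stimulates thyrotropin secretion, and is repressed there by thyroid hormone. Both are cut from larger precursors inside secretory granules, and thyrotropin-releasing hormone is further amidated at its end. Transcription of both genes is known to respond to cAMP through the factor CREB, which binds the cAMP response element (CRE).

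The starts of both genes are shown so that exact matches to this element can be seen in their place. Each window runs from 250 bases before to 50 bases after the transcript start, is written 5′ to 3′ on the gene's minus strand, and comes from RefSeq on GRCm38.p6 (Sst at chr16:23890795-23891094, Trh at chr6:92244601-92244900). Capitals mark matches, on either strand, to the full CRE TGACGTCA, to its core TGACG, which lies inside the full element, and to TATAA.
Sst promoter: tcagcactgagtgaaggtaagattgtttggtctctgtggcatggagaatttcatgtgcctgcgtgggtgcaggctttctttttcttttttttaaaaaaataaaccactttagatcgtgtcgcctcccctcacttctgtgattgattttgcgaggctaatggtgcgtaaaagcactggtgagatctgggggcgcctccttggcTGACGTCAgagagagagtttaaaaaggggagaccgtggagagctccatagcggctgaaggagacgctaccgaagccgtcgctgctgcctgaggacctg
Trh promoter: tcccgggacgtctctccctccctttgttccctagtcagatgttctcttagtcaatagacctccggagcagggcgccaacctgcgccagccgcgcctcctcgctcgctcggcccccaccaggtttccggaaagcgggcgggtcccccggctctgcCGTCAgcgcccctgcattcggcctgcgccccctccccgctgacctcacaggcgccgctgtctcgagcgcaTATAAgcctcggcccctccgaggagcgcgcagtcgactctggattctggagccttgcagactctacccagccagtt

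The Sst window holds the full CRE, beginning 48 bases before the start, and no TATAA. The full element was present in 1.79% of 32817 RefSeq windows of the same length. The Trh window holds no full CRE; it has the core once, on the opposite strand and beginning 96 bases before the start, and TATAA beginning 26 bases before it. The core was present in 20.8% and TATAA in 24.9% of all windows. The G and C content was 50.3% for Sst and 67.0% for Trh. A match describes these letters and says nothing of binding in these samples. Only exact matches were sought, so a near match to the full CRE, such as tgacctca in the Trh window, is left unmarked.

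The signal was taken to be on a log2 scale because all values lay between 5.00 and 12.97; no source used here names the base. The arrays had medians of 6.778 to 6.783. For most probe sets the values were almost the same on all arrays (a median SD of 1e-05 log2 over the named genes), so that only their level can be read. Sst and Trh belong to the 276 genes (1.42%) with an SD of at least 0.01 log2, called varying below, and the size of an age difference can be read only for these. No 2 arrays were identical. Young 5 stood apart for choroid plexus transcripts: the mean of 8 varying genes of that list was 8.34 log2 there, and at most 6.62 on any other array. Young 3 stood apart for the liver transcript Mup2, at 7.35 log2 there and at most 6.39 on any other array.

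Sst was lower in Old than in Young hypothalamus by 0.16 log2, or 1.12-fold. Its signal was 10.36, 10.51, 10.52, 10.55 and 10.46 log2 in Old 1 to Old 5, against 10.75, 10.55, 10.69, 10.63 and 10.59 log2 in Young 1 to Young 5. The groups met at a single point: Old 4, the highest Old array, exceeded Young 2, the lowest Young array, by only 0.00059 log2, and the other 4 Old arrays lay below every Young array. Of the 276 varying genes, 20 had all Old arrays below all Young arrays and 57 had all Old arrays above. Near separation of the ages was therefore not particular to Sst. Old 1 was the lowest and Young 1 the highest of the 10. The means were 10.48 ± 0.074 log2 in Old and 10.64 ± 0.078 log2 in Young (SD, n = 5 each), so the difference was about as large as the SDs of both groups added together.

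Trh did not separate the ages. Its signal was 8.45, 8.62, 8.47, 8.54 and 8.63 log2 in Old 1 to Old 5, against 8.51, 8.41, 8.63, 8.67 and 8.72 log2 in Young 1 to Young 5. All 5 Old values lay inside the range of the Young values, whose lowest array was Young 2 and whose highest was Young 5, the array with choroid plexus transcripts. The means were 8.54 ± 0.082 log2 in Old and 8.59 ± 0.13 log2 in Young (SD, n = 5 each), a difference of -0.04. Age accounted for 57.6% of the variance of Sst over the 10 arrays and for 4.87% of that of Trh.

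**Figure D1:**
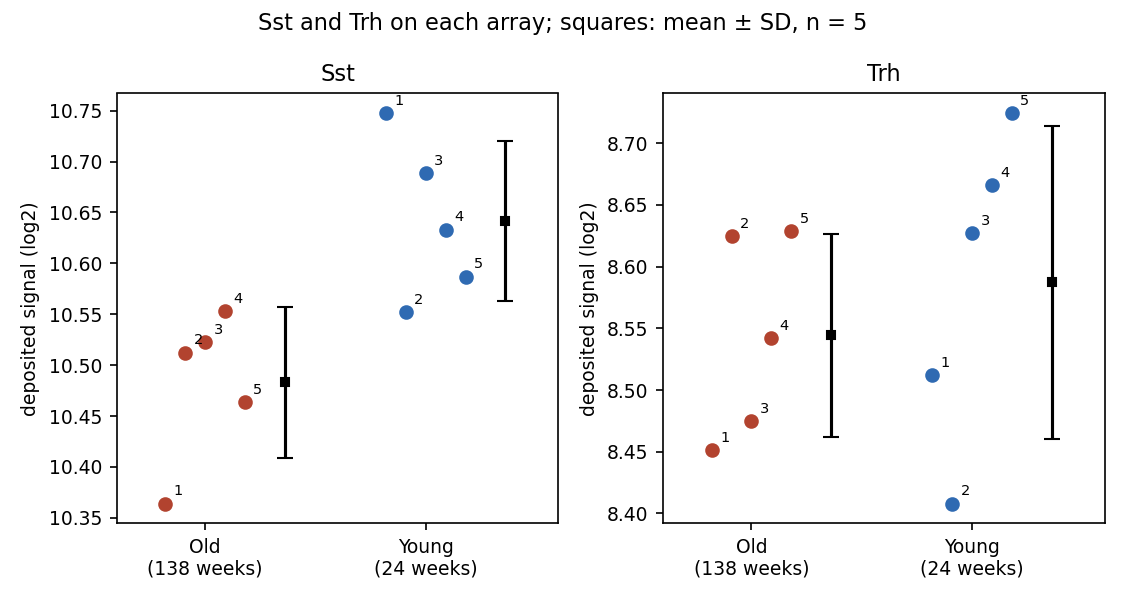
Deposited log2 signal of Sst (left) and Trh (right) on each array, Old before Young, with the replicate number beside each point and the mean ± SD (n = 5) as a square with bars. The Sst groups touch only at Old 4 and Young 2, while the Trh values of Old lie between 8.45 and 8.63, inside the Young range of 8.41 to 8.72.

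In limma's fit to all 19505 genes, which called 0.22% of genes (37 higher and 6 lower in Old; 0.0308% for lower), neither gene passed the threshold of an adjusted p of 0.05. For Sst the difference was -0.16 (SE 0.045, 95% interval -0.26 to -0.06), with an adjusted p of 0.465 and an unadjusted p of 0.00665. For Trh it was -0.04 (SE 0.064, 95% interval -0.19 to 0.10), with an adjusted p of 0.953. The interval of Trh includes a fall as large as that measured for Sst, so these arrays do not show that Trh stayed level. A 2-sided exact permutation test over all labellings of the arrays, whose smallest possible p is 0.00794, gave 0.0159 for Sst and 0.54 for Trh.

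The fit was repeated on the varying genes alone, where 35.9% of genes were called (11.2% lower and 24.6% higher in Old). Sst was then among the 31 called lower (SE 0.047, unadjusted p = 0.00778, adjusted p = 0.0272), and Trh was not called (SE 0.064, adjusted p = 0.617). Its SE and unadjusted p were not smaller than over all genes, so the call came from adjusting over 276 genes in place of 19505. The varying genes were chosen by their SD over both ages together, which a difference between the ages enlarges. That call of Sst lay near the threshold and was lost in some fits without 1 array. The adjusted p was 0.0589 with Young 1 left out, 0.0624 with Young 3 left out and 0.0573 with Old 5 left out. It was 0.0727 in the fit that omitted both Young 3 and Young 5, 0.0739 in the one that omitted Young 1, Young 2 and Old 3, and 0.086 with the replicate number as a block, while the difference stayed between -0.18 and -0.13 when single arrays were left out. A call over all genes was also obtained for Sst with other normalizations (adjusted p = 0.019 with quantiles, 0.00256 with centred medians). Its unadjusted p in limma was then 0.00652 and 0.00253, beside 0.00665 in the main fit. Of the 19505 genes, quantiles called 546 higher and 7633 lower, and centred medians 92 higher and 19273 lower. A call shared with so many genes says nothing particular of Sst.

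The sign of the Trh difference depended on which arrays entered. Without Young 5 it was -0.01, without Young 2 -0.09, and without Young 3 and Young 5 together it was 0.02 (adjusted p = 0.991 over all genes). The age difference of Sst minus that of Trh was -0.12: the 2 signals were 1.94 ± 0.088 log2 apart in Old and 2.05 ± 0.15 log2 apart in Young (SD, n = 5 each). A 2-sided exact permutation test of this difference, added after seeing the values, gave p = 0.175, so the 2 genes were not shown to differ in their response to age.

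Other peptide genes of the hypothalamus put these differences in scale. Of 23 listed peptides 7 varied, Sst and Trh among them, and with limma 0 passed over all genes in either direction. An unadjusted p under 0.05 was found for 3 of the 23, of which 2, Sst and Npy, varied. Of all genes 1331, or 6.82%, had such a p, and of the 276 varying genes 143 did. Hcrt, which encodes the arousal peptide orexin, differed by -0.09 (SE 0.051), Penk, a precursor of opioid peptides, by -0.03 (SE 0.14) and Vip, a peptide of the circadian pacemaker, by -0.02 (SE 0.097). Npy, which drives feeding, was higher in Old by 0.20 (SE 0.078) and Pmch, the precursor of melanin-concentrating hormone, by 0.07 (SE 0.051). In the fit to varying genes alone Sst was the only one of the 7 that passed, where 35.9% of all 276 varying genes did (11.2% lower in Old). Avp, a peptide gene counted on the next list, passed that fit too. The median difference of the 7 was -0.03, beside -0.02 for all 276 varying genes. Of 12 measured genes of other releasing hormones and dopamine, 5 varied, and 0 passed over all genes with limma (1 had an unadjusted p under 0.05). All 5 averaged higher in Old, as did 131 of all 276 varying genes, but 4 of them (Th, Ddc, Slc6a3 and Slc18a2) are also on the list of midbrain dopamine neurons. Of these, Slc6a3 ran from 6.65 to 8.90 log2 in Old and from 6.91 to 8.51 in Young, and without Young 5 its difference was -0.12 and that of Th -0.01. The largest of these differences was that of Avp, the vasopressin gene, which was higher in Old by 0.62 (SE 0.13; adjusted p = 0.182 over all genes, 0.00353 in the fit to varying genes).

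**Figure D2:**
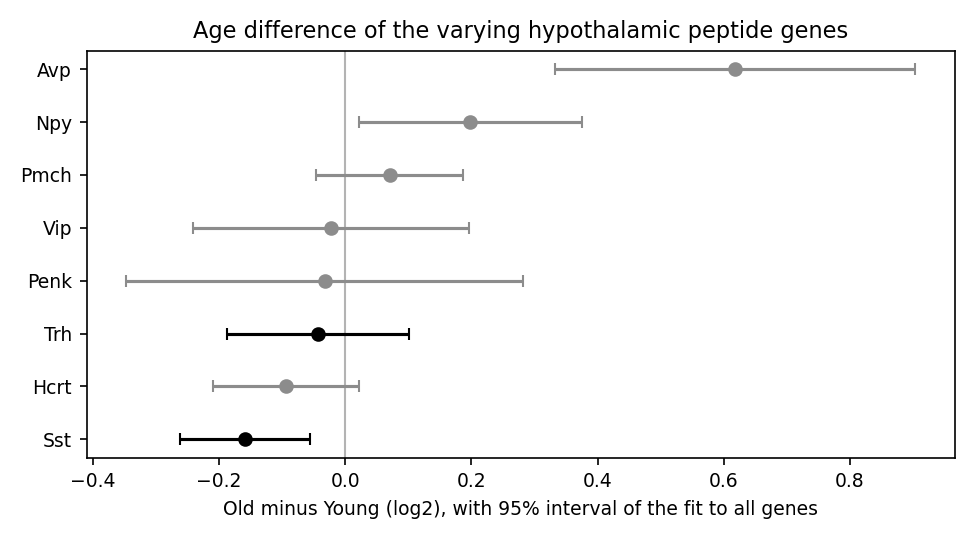
Age difference (Old minus Young, log2) of the 8 varying peptide genes, as points with the 95% interval of the fit to all genes (n = 5 each); Sst and Trh are black. Sst has the lowest difference, with an interval from -0.26 to -0.06, and the interval of Trh runs from -0.19 to 0.10.

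The receptors and the partners of somatostatin could be read only as levels. Of 7 listed genes of its family, Sst alone varied. Cort, which encodes the related peptide cortistatin, lay at 8.71 log2. The receptor genes lay at 6.01 (Sstr1), 7.59 (Sstr2), 7.01 (Sstr3), 6.78 (Sstr4) and 6.24 log2 (Sstr5), and their values cannot show the size of an age difference. Levels are given per probe set and were not compared between genes, since probe sets bind their targets to different degrees.

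In the growth hormone axis, which somatostatin restrains, 3 of 16 measured genes varied and 0 passed in either limma fit (2 of the 16 had an unadjusted p under 0.05 over all genes). Ghrh, the releasing hormone opposed by somatostatin, lay at 6.98 log2 without varying. Igf2, a growth factor of the meninges and choroid plexus, averaged 8.36 ± 0.081 log2 in Old and 8.72 ± 0.34 in Young (SD, n = 5 each; difference -0.36, SE 0.15, adjusted p = 0.701). Igfbp2, which binds insulin-like growth factors, differed by -0.11 (SE 0.093). Both were highest in Young 5. Without it Igf2 still differed by -0.21 (SE 0.041, limma adjusted p = 0.234 over all genes) and Igfbp2 by -0.02 (SE 0.027). The part of choroid plexus tissue in their differences was not tested. Gh itself differed by -0.11 (SE 0.086), with the highest value, 6.48 log2, in Young 2, without which it differed by -0.02.

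The receptors and peptidases of thyrotropin-releasing hormone did not vary either. Trhr and Trhr2, its receptor genes, lay at 7.24 and 6.07 log2, and Trhde, whose product degrades the peptide outside cells, at 7.72 log2. Of 13 measured genes for thyroid hormone transport, activation and receptors, 2 varied and 0 passed with limma (1 of the 13 had an unadjusted p under 0.05). Slco1c1, a thyroxine transporter of brain vessels, averaged 8.53 ± 0.077 log2 in Old and 8.70 ± 0.21 in Young (SD, n = 5 each; difference -0.17, SE 0.095), and Ttr, the thyroxine carrier of the choroid plexus, differed by -1.13 (SE 0.97), with Young 5 at 12.44 log2. Without Young 5 the differences were -0.08 for Slco1c1 and -0.13 for Ttr. Dio2, which makes the active hormone in tanycytes, lay at 6.52 log2 without varying. Of 11 measured target genes of thyroid hormone, 3 varied: Cirbp was higher in Old by 0.22 (SE 0.059) and Mbp, a myelin gene, by 0.08 (SE 0.03), while Aldh1a1 differed by -0.10 (SE 0.15). None of the 3 passed over all genes, and Cirbp passed in the varying genes alone (adjusted p = 0.0202).

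Of 18 measured genes for prohormone processing and secretory granules, 1 varied. Pam, the enzyme that amidates thyrotropin-releasing hormone, averaged 10.35 ± 0.062 log2 in Old and 10.29 ± 0.041 in Young (SD, n = 5 each; difference 0.06, SE 0.031, adjusted p = 0.816). The convertase gene Pcsk1 (7.68 log2) and the carboxypeptidase gene Cpe (10.42 log2) did not vary, and Pcsk2 was not analysed here. Among 20 measured transcription factors of these neurons 2 varied. Nr4a1, an immediate early gene, was higher in Old by 0.19 (SE 0.064; adjusted p = 0.637 over all genes, 0.0479 in the fit to varying genes), and Otx2, also a choroid plexus gene, differed by -0.13 (SE 0.13) with Young 5 and by -0.0067 without it. Of 16 genes known from somatostatin interneurons of cortex and striatum, Npy alone varied, and 0 of 14 markers of GABA and glutamate neurons did.

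Across the 10 arrays, the 5 genes most like Sst and the 5 most like Trh were different genes. Some genes went with both: of those most like Trh, Hspa5 had r = 0.70 with Sst, while Gpx3 had -0.15. Whether Sst and Trh differ in the genes they follow was not tested. By the rule for likeness, the 5 varying genes with the highest Pearson correlation with Sst were Prrt1 (r = 0.96), Hsph1 (0.96), Nlgn3 (0.94), Ywhag (0.94) and L1cam (0.91). Prrt1 encodes a membrane protein of excitatory synapses, Nlgn3 a postsynaptic adhesion protein, L1cam an adhesion protein of axons, and Hsph1 a heat shock chaperone. Prrt1 had 9.14, 9.31, 9.25, 9.29 and 9.22 log2 in Old 1 to Old 5, against 9.54, 9.38, 9.45, 9.39 and 9.40 log2 in Young 1 to Young 5. As for Sst, Old 1 was lowest and Young 1 highest, and here the groups did not overlap. Such a separation, with Old lower, was seen in 20 of the 276 varying genes. The likeness was not only one of age: with each age group's mean removed, r was 0.92 for Prrt1, 0.89 for Hsph1, 0.86 for Nlgn3, 0.85 for Ywhag and 0.81 for L1cam. Only 81 of all 276 varying genes then lay below 0 with Sst, so an r above 0 within age was common.

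The 3 genes most opposite to Sst were Cirbp (r = -0.88), Luzp2 (-0.87) and Rbm3 (-0.86). Cirbp and Rbm3 encode RNA-binding proteins that are induced by mild cold. Rbm3 had 9.96, 10.11, 9.96, 9.80 and 10.12 log2 in Old 1 to Old 5, against 8.92, 9.44, 8.85, 9.48 and 9.34 log2 in Young 1 to Young 5. The groups were apart, as in 57 of the 276 varying genes with Old higher. Within Young the arrays Young 1 and Young 3, which had the most Sst, had the least Rbm3. With the age means removed, r was -0.71 for Cirbp, -0.73 for Luzp2 and -0.62 for Rbm3. These correlations describe 10 arrays, which share RNA extract and normalization between genes, and the genes were picked for them.

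The 5 varying genes most like Trh were Fezf1 (r = 0.85), Gpx3 (0.78), Hspa5 (0.78), Sulf1 (0.77) and Hdc (0.76), and their correlations with the age means removed were 0.76 to 0.85. Fezf1 is a transcription factor of the ventromedial hypothalamus, Hdc makes histamine in the tuberomammillary nucleus, and Hspa5 is a chaperone of the endoplasmic reticulum. Fezf1 had 7.945, 8.249, 8.087, 8.127 and 8.285 log2 in Old 1 to Old 5, against 8.194, 8.003, 8.150, 8.254 and 8.246 log2 in Young 1 to Young 5. As for Trh, Old 1 and Young 2 were the lowest arrays of their groups.

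The 3 genes most opposite to Trh were Drd1 (r = -0.78), Meis2 (-0.78) and Pde1b (-0.72), all of them on the list of striatal projection neurons. Drd1, a dopamine receptor gene of those neurons, had 6.574, 6.502, 7.001, 6.751 and 6.470 log2 in Old 1 to Old 5, against 6.994, 7.160, 6.565, 6.491 and 6.524 log2 in Young 1 to Young 5. Old 3, Young 1 and Young 2 were high, and each had less Trh than its group's mean. All 8 varying genes of the 16 measured on that list correlated below 0 with Trh (r from -0.78 to -0.64) and above 0 with Sst (0.17 to 0.31). Of all 276 varying genes, 135 lay below 0 with Trh and 151 above 0 with Sst. All 6 varying genes of midbrain dopamine neurons also lay below 0 with Trh, among them Slc6a3, Th, Ddc and Slc18a2, and so did Tcf7l2, the varying gene of the thalamus list. All 4 varying genes of the hypothalamus list (Fezf1, Hcrt, Pmch and Avp) lay above 0, from 0.03 for Avp to 0.85 for Fezf1, as did 141 of all 276 varying genes. All 8 varying choroid plexus genes lay above 0 as well, but 5 of the 8 did so without Young 5.

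**Figure D3:**
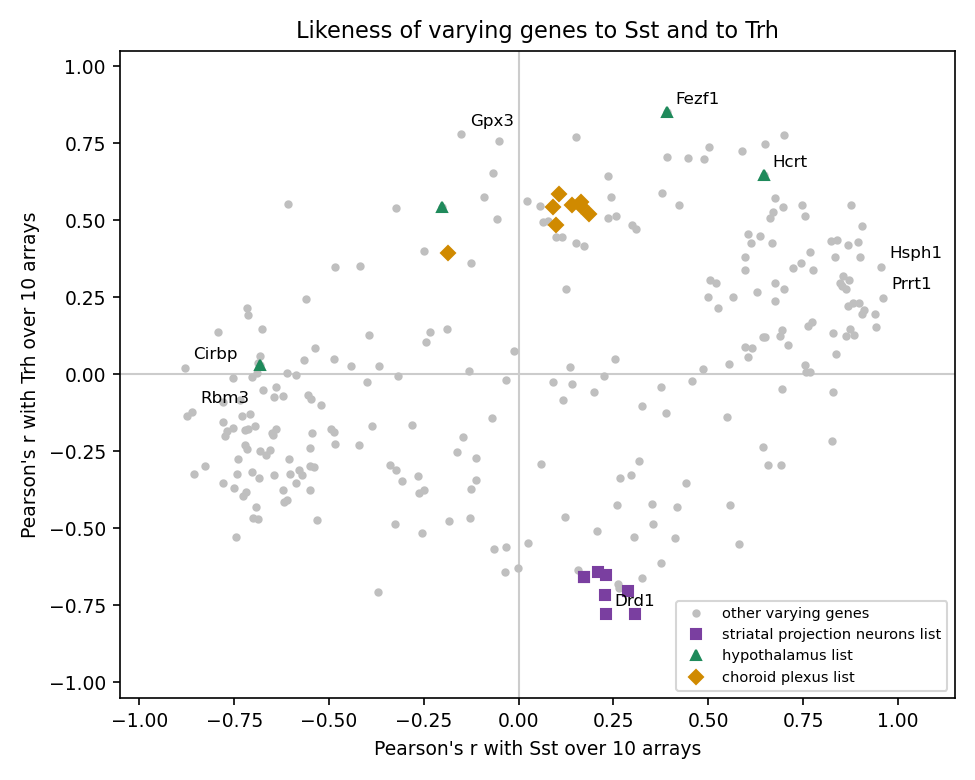
Pearson's r over the 10 arrays with Sst (horizontal) and with Trh (vertical) for each varying gene, with 3 marker lists in colour. The 8 striatal genes lie together at the bottom, with r from -0.78 to -0.64 for Trh and 0.17 to 0.31 for Sst.

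The mean of the 8 varying striatal genes was 8.25, 8.21, 8.62, 8.42 and 8.17 log2 in Old 1 to Old 5, against 8.56, 8.63, 8.26, 8.22 and 8.21 log2 in Young 1 to Young 5. It differed between the ages by -0.04 (2-sided exact permutation p = 0.698), and the log2 scale of the array has no true zero by which a marker could be called absent. Of 3 relations computed across arrays, that of this mean with Trh had r = -0.76 (permutation p = 0.0149, adjusted p = 0.0446) and a Spearman rho of -0.73 (permutation p = 0.0204, adjusted p = 0.0611). The list was chosen with earlier results of these data known, and its 8 genes were kept because they varied on these arrays. Adjusting over 3 relations does not cover that choice, so the p-values of this relation are likely too small. Without Old 3 and Young 2, the arrays farthest from the median, r was -0.56 (exact permutation p = 0.155), so the relation rests in large part on these arrays. Among the 6 arrays with the lowest striatal mean (8.17 to 8.26 log2) r was -0.42 (exact permutation p = 0.403). They cover only a small part of the span up to 8.63 log2, so this r cannot tell whether the relation holds there. Without Young 3 and Young 5, r was -0.75 (exact permutation p = 0.0474) and no longer passed (adjusted p = 0.142; rho = -0.79, adjusted p = 0.0838). With each age group's mean removed, r was -0.82 (permutation p = 0.00477, adjusted p = 0.0143) and rho -0.85 (permutation p = 0.00287, adjusted p = 0.00861), and -0.72 without the same arrays (exact permutation p = 0.0432).

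With the striatal mean as a covariate, the age difference of Trh was -0.06 (SE 0.039, adjusted p = 0.852), with an SE below the 0.064 of the fit without it, and that of Sst stayed at -0.15 (SE 0.047, adjusted p = 0.559). Without Young 1, Young 2 and Old 3, the arrays richest in striatal transcripts, Trh differed by -0.11 (SE 0.05, adjusted p = 0.793) and Sst by -0.16 (SE 0.049, adjusted p = 0.655). The part that striatal tissue had in these values was not tested. In bulk tissue, fewer cells of a type and less RNA per cell cannot be told apart.

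**Figure D4:**
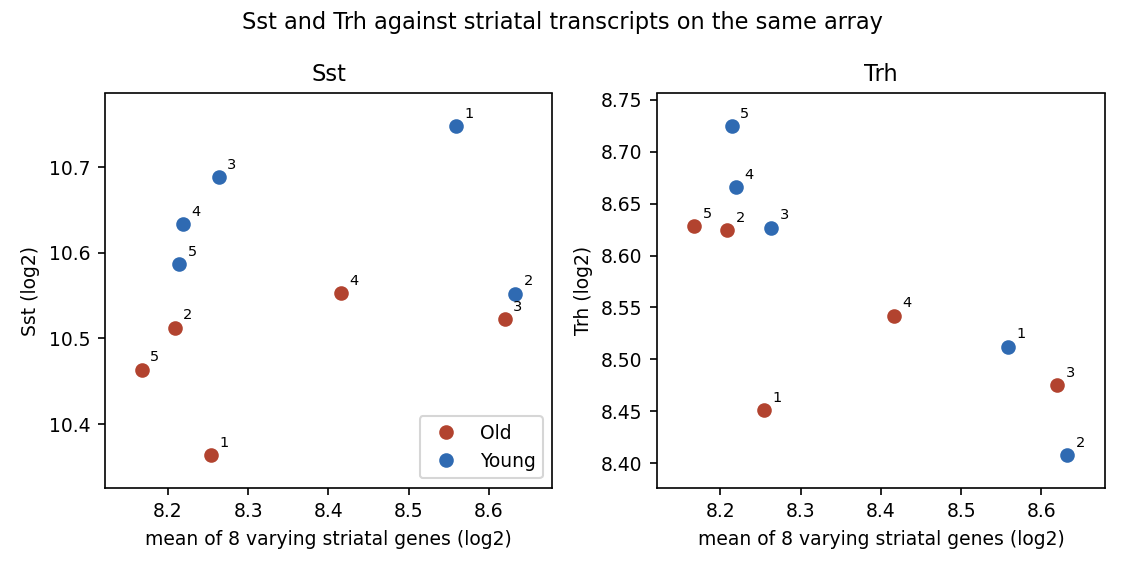
Sst (left) and Trh (right), in log2, against the mean of the 8 varying striatal genes on the same array, with Old and Young in separate colours and replicate numbers beside the points. Trh is lowest at the right, in Young 2 and Old 3, except for Old 1, which has low Trh (8.45) at a striatal mean of 8.25.

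The relation of the striatal mean with Sst had r = 0.25 (permutation p = 0.49, adjusted p = 0.49) and rho = 0.31 (permutation p = 0.388, adjusted p = 0.389), and r was 0.54 without Old 3 and Young 2 (exact permutation p = 0.174). That of Sst with Trh had r = 0.27 (permutation p = 0.451) and rho = 0.31 (permutation p = 0.389), with adjusted p of 0.49 and 0.389; without Old 1 and Young 1 its r was 0.28 (exact permutation p = 0.502). With the age means removed it was r = 0.16 (permutation p = 0.647), but -0.85 without Old 1 and Young 2 (exact permutation p = 0.00747), the arrays that were lowest in both genes within their age. No steady relation between the 2 hormones over these arrays was therefore found. The hypothalamus list itself could bear little on the labelled tissue: 17 of its 21 genes did not vary, and no detection calls were used.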

How the data were processed

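The series holds 10 arrays of mouse hypothalamus. The authors deposited log2 values, 1 per probe set and array; how they corrected, normalized and summarised the signal is not stated in any source used here, and the log2 scale was read from the values. Of 22206 probe sets, 19572 had 1 gene symbol, 0 had several and 2634 were unnamed. All 19572 gene identifiers matched RefSeq (GRCm38.p6), with 0 symbols changed. For each gene the probe set with the highest mean was kept.

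Old was compared with Young by limma 3.58.1 (lmFit, eBayes; R 4.3.3), 2-sided, with Benjamini-Hochberg adjustment over 19505 genes and a threshold of 0.05. The procedure was tested on simulated data. Permutation tests used SciPy 1.17.1 and NumPy 2.4.6 (100000 resamples for relations over 10 arrays, exact otherwise). Precision is limited by the number of arrays.

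The members and the 24 gene lists were chosen with earlier results of these data known. Named were Sst, Trh, their direct partners, up to 4 varying members of each pathway list by smallest p, and, as genes most like each member, the 5 highest and 3 lowest by Pearson's r among genes with an SD of at least 0.01 log2. Beyond that rule, all varying members were named for the list of hypothalamic peptides and that of other releasing hormones and dopamine. Lists of astrocytes, microglia, oligodendrocytes, endothelium, tanycytes, pituitary, cortex, and blood and liver were counted only, except for the astrocyte and oligodendrocyte genes named under the other observations. Alternatives changed the normalization, the genes or arrays entering, the prior, a covariate and a replicate block. Both members matched a RefSeq promoter.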

Additional observations from a re-analysis of the deposited data

Results flagged for a closer look

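Of 96 groups checked (48 genes and list means in each age), 7 had 1 array far from the others, with a gap above 0.71 of the group's range; chance gives about 1 in 20 groups. Sst and Trh were not among them. Young 5 was far above the other Young arrays for Igf2 (9.33 against a nearest value of 8.61 log2), Igfbp2 (7.83 against 7.39), Ttr (12.44 against 7.97) and the choroid plexus mean (8.34 against 6.62). Gh was highest in Young 2 (6.48 against 6.08). Ywhag, among the genes most like Sst, was lowest in Old 1 (10.39 against 10.48), which was also the lowest array for Sst. Vip was highest in Old 4 (6.75 against 6.43).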

How the results depend on the processing

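Sst was lower in Old under every alternative run, by -0.18 to -0.13 log2 when single arrays were left out, where its adjusted p over all genes was 0.379 to 0.648. It gained a call with quantile normalization (-0.16), centred medians (-0.16), the varying genes alone (-0.16), genes with an SD of at least 0.05 (-0.16) and, added after seeing the data, the varying genes with the striatal mean as a covariate (-0.15). The calls with quantiles and centred medians were shared with a large part of all genes, as counted below, and are not particular to Sst. In the varying genes, leaving out single arrays kept the call in 7 of 10 fits. Trh differed by -0.09 to -0.01 when single arrays were left out and by 0.016 without Young 3 and Young 5 in either fit, where its direction was reversed; it gained no call. Over all genes 37 were higher and 6 lower; leaving out single arrays gave 25 to 37 and 4 to 9. Quantile normalization gave 546 and 7633, centred medians 92 and 19273, since shifting array medians by up to 0.0025 log2 moves genes whose SD is 1e-05. The varying genes alone gave 68 and 31, an SD of at least 0.05 gave 65 and 28, a threshold of 0.01 gave 21 and 2, with a trended robust prior 10 were lower, leaving out Young 3 and Young 5 gave 22 and 2, and leaving out Young 1, Young 2 and Old 3 gave 4 and 1. The replicate number of the titles as a block gave 10 higher and 1 lower, with Sst at -0.16 (adjusted p = 0.681; 0.086 in the varying genes alone) and Trh at -0.04; the deviations of same-numbered arrays had correlations of -0.22 to 0.28, which is not over 0.1 in every pair, so the numbers were not taken to pair the samples. The midbrain dopamine mean was nevertheless 8.40 to 8.79 log2 in Old 1 to Old 3 and 8.42 to 8.54 in Young 1 to Young 3, against 7.98 and 7.86 in Old 4 and Old 5 and 8.02 and 7.93 in Young 4 and Young 5. The causes of these changes in counts were otherwise not tested.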

Other observations

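Outside the rule for named genes, and chosen after their values were seen, some genes of glia followed Sst over the 10 arrays and others did not. Of the 5 varying astrocyte genes 4 correlated above 0 with Sst; among these, Kcnj10, a potassium channel, had r = 0.87 with Sst over the 10 arrays and 0.72 with the age means removed, and Ntsr2, a neurotensin receptor, had 0.86 and 0.77, while Gfap, the filament of reactive astrocytes, had -0.65 over the 10 arrays. Of the 5 varying oligodendrocyte genes 2 correlated above 0: Cldn11, of the myelin tight junction, had 0.88 and 0.68, and Gpr17, of differentiating oligodendrocytes, had 0.87 and 0.65. The other 3 were below 0 over the 10 arrays, Mobp at -0.31, Mbp at -0.25 and Ermn at -0.15. With the age means removed, 0 of the 5 varying genes of either list lay below 0 with Sst, beside 81 of all 276 varying genes. Gfap then had 0.18 and Ermn 0.73. Pam, whose product amidates thyrotropin-releasing hormone, had r = 0.54 with Trh, and 0.78 with the age means removed. These are descriptions of 10 arrays without a test.

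In the lists of other cells and tissues, counted over all genes, 1 of 11 measured astrocyte genes rose in Old and 2 fell, and 3 of 11 microglia genes rose and 0 fell, where 0.19% of all genes rose and 0.0308% fell. For oligodendrocytes (9 measured genes), endothelium (9), tanycytes and ependyma (10), pituitary (11), cortex and hippocampus (13), thalamus (14), choroid plexus (11), midbrain dopamine neurons (12), striatal projection neurons (16), and blood and liver (7), 0 genes passed limma's threshold in either direction. At an unadjusted p under 0.05 the counts were 5 for oligodendrocytes, 1 for endothelium, 1 for cortex and hippocampus, 3 for thalamus, 1 for striatal projection neurons and 0 for the others, beside 6.82% of all genes. Those of oligodendrocytes and endothelium were all varying genes, and of the 276 varying genes 143 had such a p. Those of cortex and hippocampus, thalamus and striatal projection neurons did not vary.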
